A study of Homo sapiens with 4 samples.

Results

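BMP signalling was examined through 10 genes of the pathway in HCC1954, an established human breast cancer cell line with an amplified ERBB2 gene, of the 58735 genes in the table of counts. The genes were chosen by name: the ligands BMP2, BMP4 and BMP7, the receptor BMPR2, the secreted antagonist GREM1, the inhibitory SMAD6, and the 4 ID genes ID1, ID2, ID3 and ID4. RNA was sequenced from 2 samples with a scrambled control hairpin (shCON) and 2 samples with a hairpin against ZDHHC15, a palmitoyltransferase (shZDHHC15), so both groups carry a hairpin vector of the GIPZ type and differ in its target. The labels do not name the hairpin sequences, and they speak of stable knockdown in one place and of transient transfection in another. The study's methods mention monoclonal cultures that were screened for the hairpins, and whether the shZDHHC15 samples came from 1 clone, from separate cultures or from different hairpins is not given, so p-values measure only the spread between these samples.

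BMPs are secreted dimers of the TGF-beta superfamily that bring type I and type II serine/threonine kinase receptors together. The activated type I receptor phosphorylates SMAD1, SMAD5 and SMAD9, which enter the nucleus with SMAD4 and switch on target genes, among them ID1, ID2, ID3 and the inhibitory SMAD6. ID proteins hold a helix-loop-helix domain without a DNA-binding region, and they keep E proteins such as TCF3 and TCF12 from binding DNA, which delays differentiation in many epithelia, the mammary gland included.

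The samples held between 17560982 and 19118704 counts on genes. ZDHHC15 itself had 17617 and 15716 counts with the control hairpin and 0 counts in both shZDHHC15 samples. The direction is that of the label, whereas a hairpin usually lowers a transcript without removing it, and how the counts came to be 0 was not tested. The control level was itself high, at 966 and 932 CPM (defined below) in the shCON samples. There EPCAM, an epithelial marker, had 273 and 251 CPM, while ERBB2 was higher, at 5590 and 5930 CPM. Of the genes chosen by name, the highest in shCON was ID3, at 60.3 and 70.5 CPM. The source of the ZDHHC15 level in shCON was not tested. The markers of the line were present in every sample, with ERBB2 between 92598 and 101910 counts and CDH1 between 5950 and 6892. However, 6 of the 8 epithelial and ERBB2-amplicon markers were lower and 1, KRT19, was higher in shZDHHC15 cells. The largest falls were in the keratin genes KRT8 (log2 fold change -1.62), KRT18 (-1.58) and KRT7 (-0.99), while CDH1 did not pass the test (-0.05). The summed level of the 8 markers was 19470 to 21002 CPM in shCON and 11739 to 11961 CPM in shZDHHC15 samples. CPM, here and throughout, is the count divided by the TMM-normalized library size and scaled to a common total. Markers of other cell types were low but also moved. Leukocyte markers summed to 0.474 to 0.713 CPM in shCON and 1.63 to 1.72 CPM in shZDHHC15 samples, with CD3E at 0 in all of them and CD14 higher (log2 fold change 1.61, adjusted p = 0.0158). Fibroblast markers summed to 5.81 to 7.17 CPM against 8.56 to 11.5 CPM, with LUM at 0 and COL1A1 higher (0.65, adjusted p = 0.0232). Of the hormone receptor genes, which are low in this line, ESR1 was higher (1.09, adjusted p = 2.13e-04) and PGR had at most 1 count. Of the endothelial markers, PECAM1 and CDH5 were higher and KDR lower, VWF had at most 7 counts, and their summed level was 57.1 CPM in both shCON samples against 101 and 107 CPM in the shZDHHC15 samples. Fewer cells of a type and less RNA per cell cannot be told apart in such bulk samples.

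Of the 10 genes, 9 passed the filter on low counts and 7 of these differed between the groups at an adjusted p under 0.05, where 42% of the 15817 genes tested did so in the whole table. BMPR2, SMAD6 and ID1 rose, and BMP2, BMP7, ID3 and ID4 fell, while BMP4 and ID2 did not pass the test. Of all genes tested, 21.7% rose and 20.3% fell. The median log2 fold change of the 9 genes was -0.49, against 0.02 over all genes tested. ID1 and SMAD6 also had a log2 fold change above 1 (7.51% of all genes did) and ID3 one below -1 (3.79%), so that 3 of the 9 lay beyond 1 in either direction, where 11.3% of all genes did. The adjusted p-values come from edgeR's quasi-likelihood test over all genes, and with 2 samples against 2 an exact permutation of the samples cannot give a two-sided p below 0.333. The shCON and shZDHHC15 samples did not overlap in CPM for 8 of the 9 genes, as for 72.5% of all genes tested. Because the genes were chosen with earlier results of these data known, their shares beside those of all genes are a description.

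**Figure D1:**
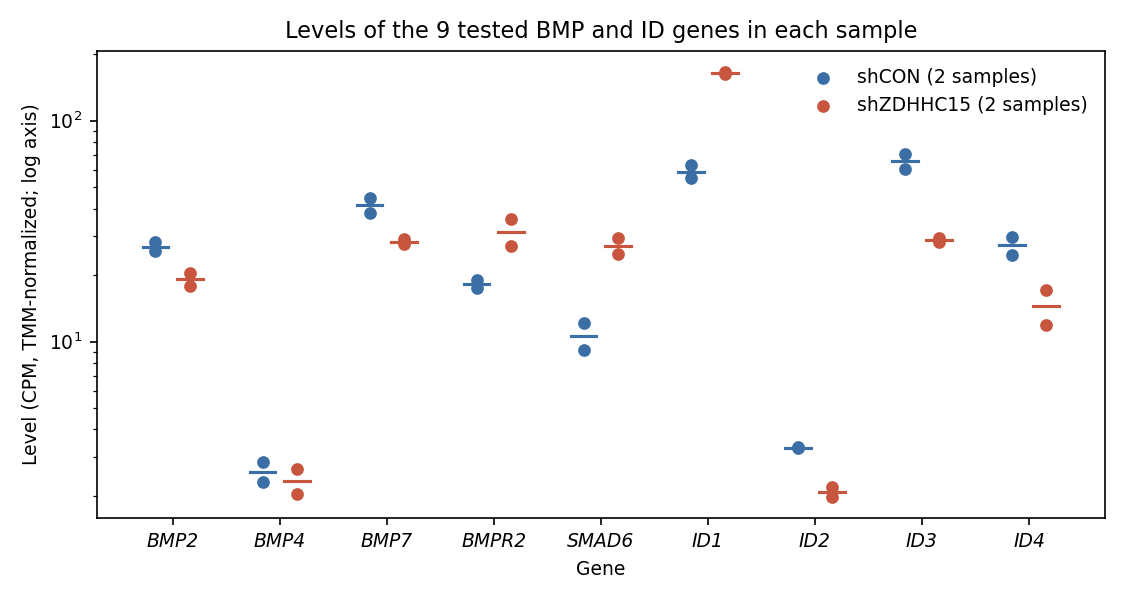
Level of each tested gene in each sample, in CPM on a log axis (blue, 2 shCON samples; red, 2 shZDHHC15 samples; bars, group means). ID1 stood at 54.7 and 62.8 CPM in shCON and at 166 and 162 CPM in shZDHHC15 samples, ID3 moved the other way, and only the BMP4 samples of the groups overlapped.

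Promoter sequences show what lies just before the starts of ID1 and SMAD6, which rose, and of ID4, which fell. They were taken from RefSeq on GRCh38.p14, where 8 of the 10 genes had an entry (BMP2 and BMP7 had none), and cover the 250 bases before the RefSeq start on the strand of the gene. The RefSeq start lies 6 and 8 bases after the GENCODE start used for the counts in ID1 and SMAD6, whose windows thus run past that start. In ID4 it lies 16 bases before the GENCODE start. The windows are chr20:31605039-31605288 (plus strand), chr15:66701986-66702235 (plus strand) and chr6:19837120-19837369 (plus strand). Capitals mark matches on either strand. The palindromic SMAD-binding element was searched as GTCTAGAC. The GC-rich letters that BMP-activated SMADs bind were searched as GGCGCC. The letters of the TEAD factors, which work with YAP, were searched as GGAATG. The E-box, the site of E proteins, was searched as CANNTG, and the TATA box was searched as TATAAA.
ID1: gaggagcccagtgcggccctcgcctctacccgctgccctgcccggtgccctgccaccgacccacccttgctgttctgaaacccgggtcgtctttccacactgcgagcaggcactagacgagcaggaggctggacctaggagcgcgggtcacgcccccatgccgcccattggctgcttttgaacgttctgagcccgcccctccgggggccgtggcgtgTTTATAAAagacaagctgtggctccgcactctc
SMAD6: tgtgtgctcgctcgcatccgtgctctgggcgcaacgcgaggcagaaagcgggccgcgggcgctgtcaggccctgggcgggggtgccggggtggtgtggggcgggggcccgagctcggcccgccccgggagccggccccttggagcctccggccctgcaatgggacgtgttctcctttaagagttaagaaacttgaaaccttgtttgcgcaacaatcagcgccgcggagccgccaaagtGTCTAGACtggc
ID4: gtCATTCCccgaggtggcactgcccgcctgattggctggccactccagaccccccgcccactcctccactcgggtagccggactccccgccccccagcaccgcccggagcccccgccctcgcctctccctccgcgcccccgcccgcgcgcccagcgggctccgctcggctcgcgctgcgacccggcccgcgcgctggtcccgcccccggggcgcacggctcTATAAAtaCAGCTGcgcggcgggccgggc

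The SMAD6 window held GTCTAGAC between 12 and 5 bases before the RefSeq start, letters found in 0.182% of the 35116 promoter windows of this length. The GENCODE start of SMAD6, 8 bases before the RefSeq start, lies inside this match. The ID4 window held 1 match to GGAATG (11.9% of all windows), as CATTCC on the printed strand, and 1 E-box (61.8%), as CAGCTG, beside a TATA box (10.7%). The ID1 window held a TATA box in overlapping matches on both strands and none of the other motifs. GGCGCC (16.4%) was in none of the 3 windows printed, and in 1 window of BMPR2, 1 of BMP4 and 1 of GREM1. BMP4 and GREM1 had more than 1 window, and the rest of theirs held no GGCGCC. The BMPR2 window ends at 202376326, well before the GENCODE start of that gene at 202376936. The ID3 window, which lies inside the first GENCODE exon of the gene and is not printed, held none of these motifs. A match or its absence in these windows is a description of the letters and says nothing of binding in these cells. Sequence more than 250 bases before the RefSeq start was not searched, so sites farther away would be missed.

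Among the ligands, BMP7 and BMP2 had the highest levels per gene length, and both fell. BMP7 (ENSG00000101144, GRCh38 chromosome 20, 57168748 to 57266629, minus strand), known for its part in kidney development, had 696 and 751 counts in shCON and 543 and 541 counts in shZDHHC15 samples. This was 41.3 ± 4.49 against 28.4 ± 1.13 CPM (SD, n = 2), which gave a log2 fold change of -0.54 ± 0.121 (SE, adjusted p = 0.00224). Both shZDHHC15 samples lay below both shCON samples, and the decrease was 1.46-fold.

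BMP2 (ENSG00000125845, chromosome 20, 6767664 to 6780280, plus strand), a potent inducer of bone, received 513 and 433 counts in shCON and 331 and 401 counts in shZDHHC15 samples. This was 26.9 ± 1.75 against 19.1 ± 1.88 CPM (SD, n = 2), which gave a log2 fold change of -0.49 ± 0.132 (SE, adjusted p = 0.00755). The groups did not overlap, but shZDHHC15 replicate 2 came close to shCON replicate 2. Without shZDHHC15 replicate 1 the log2 fold change was -0.40 and no longer passed (adjusted p = 0.0907).

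BMP4 (ENSG00000125378, chromosome 14, 53949736 to 53958761, minus strand) is the close relative of BMP2 that patterns the early embryo. Its counts were low, at 42 and 48 in shCON and 38 and 52 in shZDHHC15 samples. The groups overlapped, and the log2 fold change of -0.13 had a 95% confidence interval from -0.75 to 0.50 (adjusted p = 0.763), so that a change of less than that size was not detectable at this depth.

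Levels of different genes were compared per kilobase of gene length (RPKM scale). On this scale the 3 ligands together reached 15.6 and 16.3 with the control hairpin against 10.98 and 11.6 with shZDHHC15. BMP2 made up 46.9 ± 4.42% of this sum in shCON and 46.9 ± 2.74% in shZDHHC15 cells, and BMP7 made up 47.8 ± 3.79% and 46.4 ± 3.70% (SD, n = 2), differences smaller than the spread between replicates (exact permutation p = 1 for BMP2 and 0.667 for BMP7, two-sided). BMP4 contributed 5.23 ± 0.626% and 6.71 ± 0.967%. The groups did not overlap for BMP4 or for the sum, each at the smallest p possible (exact permutation p = 0.333).

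Of the receptor and the inhibitors, BMPR2 and SMAD6 both rose. BMPR2 (ENSG00000204217, chromosome 2, 202376936 to 202567751, plus strand) encodes the type II receptor dedicated to BMPs. It received 346 and 295 counts in shCON and 665 and 534 counts in shZDHHC15 samples, 18.2 ± 1.05 against 31.5 ± 6.02 CPM (SD, n = 2). Every shZDHHC15 sample was above every shCON sample, with a wider gap between the shZDHHC15 replicates than between the controls. The log2 fold change was 0.78 ± 0.146 (SE, adjusted p = 6.05e-04), a 1.72-fold increase.

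SMAD6 (ENSG00000137834, chromosome 15, 66702228 to 66782848, plus strand) encodes an inhibitory SMAD that BMP signalling itself induces and that blocks type I BMP receptors and SMAD1. It received 167 and 204 counts in shCON and 548 and 489 counts in shZDHHC15 samples. The rise went from 10.6 ± 2.07 to 27.2 ± 3.20 CPM (SD, n = 2), which is 2.56-fold, with a log2 fold change of 1.36 ± 0.159 (SE, adjusted p = 1e-05). The groups were well apart, and the fits without 1 of the samples gave log2 fold changes from 1.14 to 1.56.

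GREM1 (ENSG00000166923, chromosome 15, 32717974 to 32745107, plus strand), which encodes gremlin, a secreted protein that binds BMP2, BMP4 and BMP7 and keeps them from their receptors, had 1 count in shZDHHC15 replicate 1 and 0 counts in the other 3 samples. A count of 0 allows up to 3 counts, or between 0.153 and 0.178 CPM at these depths, as far as counting error goes. GREM1 thus lay at or under this floor in both groups and was not tested.

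**Figure D2:**
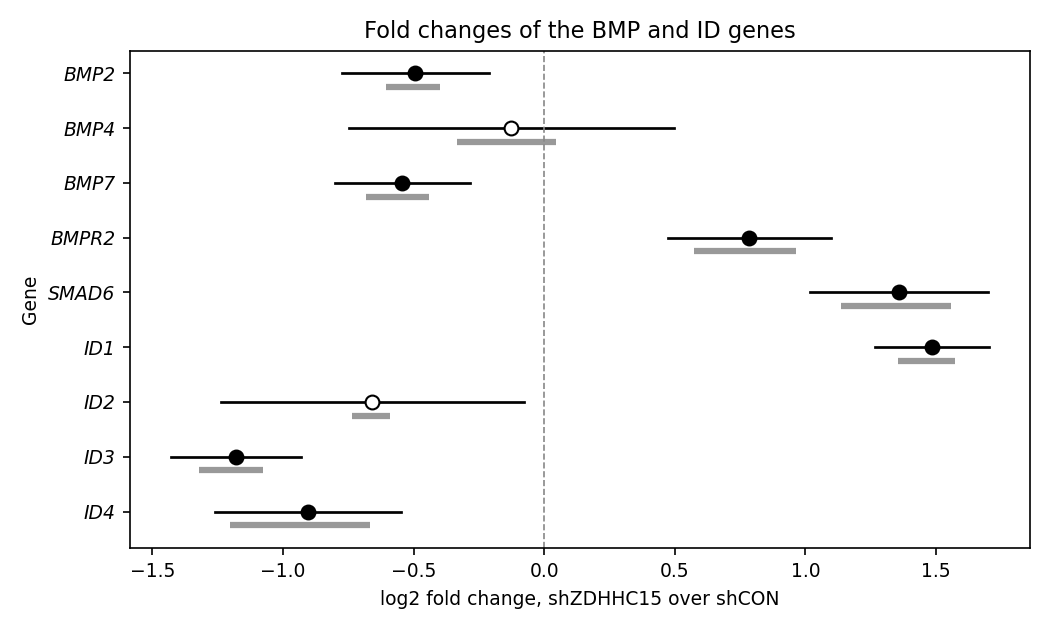
log2 fold change of shZDHHC15 over shCON for the 9 tested genes (filled points, adjusted p under 0.05; open points, not passing; black lines, 95% confidence intervals; grey bars, range over the fits that each left out 1 sample). The range of BMP4 crossed 0, and every other gene kept its direction in each of those fits.

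The ID genes did not move together. ID1 rose, ID3 and ID4 fell, and ID2 had a negative fold change that did not pass the test. ID1 (ENSG00000125968, chromosome 20, 31605283 to 31606515, plus strand), a classical early target of BMP signalling that is linked to self-renewal and invasion in breast cancer, received 998 and 1060 counts in shCON and 3093 and 3189 counts in shZDHHC15 samples. This was 58.8 ± 5.73 against 164 ± 2.58 CPM (SD, n = 2), a 2.80-fold increase (log2 fold change 1.48 ± 0.102, SE, adjusted p = 4e-08). The shZDHHC15 replicates were close to each other and far above both controls, and the fits without 1 of the samples gave log2 fold changes from 1.36 to 1.57. ID1 and SMAD6 are well expressed in endothelium. Of its 4 markers, PECAM1 (log2 fold change 2.91) and CDH5 (0.65) rose, KDR fell (-0.64, adjusted p = 0.0227) and VWF had at most 7 counts. The endothelial type I receptor gene ACVRL1 had 0 counts in every sample, and the part of these genes in the result was not tested.

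ID3 (ENSG00000117318, chromosome 1, 23557918 to 23559794, minus strand), also a BMP target and usually co-expressed with ID1, received 1099 and 1189 counts in shCON and 523 and 580 counts in shZDHHC15 samples. In CPM this was 65.4 ± 7.22 against 28.8 ± 1.03 (SD, n = 2), a 2.27-fold decrease (log2 fold change -1.18 ± 0.116, SE, adjusted p = 1.8e-06). Neither shZDHHC15 sample reached the level of either control.

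ID4 (ENSG00000172201, chromosome 6, 19837386 to 19840684, plus strand), which marks basal mammary cells and lowers BRCA1 expression, received 451 and 502 counts in shCON and 221 and 337 counts in shZDHHC15 samples. In CPM this was 27.2 ± 3.55 against 14.5 ± 3.75 (SD, n = 2), with a log2 fold change of -0.90 ± 0.167 (SE, adjusted p = 5.56e-04). The groups did not overlap, and shZDHHC15 replicate 1 was the lower of its pair. Without shZDHHC15 replicate 1 the log2 fold change was -0.67, and without shZDHHC15 replicate 2 it was -1.20.

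ID2 (ENSG00000115738, chromosome 2, 8678845 to 8684453, plus strand), which is needed for mammary alveolar growth, had the lowest level of the ID genes per gene length, with 60 and 56 counts in shCON and 41 and 39 counts in shZDHHC15 samples. The groups did not overlap, and the log2 fold change of -0.66 had a 95% confidence interval from -1.24 to -0.08. After adjustment over all genes it did not pass (adjusted p = 0.0648). The antisense gene ID2-AS1, which overlaps 38 bases of its exons, had at most 1 count in any sample.

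Per kilobase of gene length, the makeup of the ID family changed. ID1 made up 49.3% and 48.8% of the summed ID level in the shCON samples and 86.1% and 84.2% in the shZDHHC15 samples. ID3 made up 37.3% and 37.6% against 9.99% and 10.5%, and ID4 made up 11.7% and 12.2% against 3.24% and 4.68%. ID2 stayed a minor part, at 1.55 ± 0.153% and 0.607 ± 0.0441% (SD, n = 2). In each case the groups did not overlap, which gives the smallest p that these samples allow (exact permutation p = 0.333, two-sided). The summed ID level was 90.0 and 104 on the RPKM scale in shCON and 156 in both shZDHHC15 samples, so the rise of ID1 exceeded the falls of ID3 and ID4 together.

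**Figure D3:**
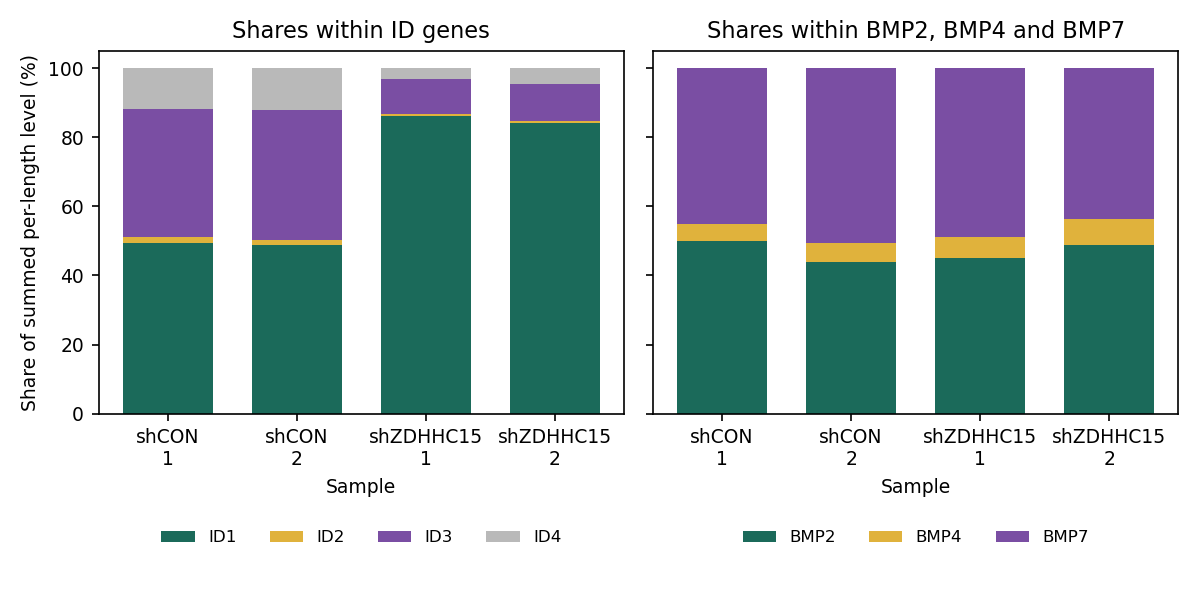
Share of each gene in the summed per-length level of its family in each of the 4 samples, in percent, for the ID genes (left) and the 3 ligands (right). The ID1 share was 49.3% and 48.8% in shCON and 86.1% and 84.2% in shZDHHC15 samples, while the shares of BMP2 and BMP7 stayed between 43.8% and 50.5% in all samples.

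In order of level per length, the shCON samples ran from ID1 (47.7 ± 4.64, RPKM scale) and ID3 (36.4 ± 4.02) over ID4 (11.6 ± 1.52), BMP7 (7.63 ± 0.828) and BMP2 (7.47 ± 0.485) to BMPR2 (1.53 ± 0.0885), ID2 (1.499 ± 0.00923), SMAD6 (1.24 ± 0.242) and BMP4 (0.835 ± 0.124), with SD over 2 samples. BMP7 and BMP2 overlapped, as did BMPR2 and ID2. In the shZDHHC15 samples ID1 stood at 133 ± 2.09 and ID3 at 16.04 ± 0.574. There SMAD6 (3.17 ± 0.373) and BMPR2 (2.64 ± 0.506) overlapped each other, as did ID4 (6.19 ± 1.60), BMP2 (5.30 ± 0.521) and BMP7 (5.23 ± 0.209), and ID2 (0.9499 ± 0.0690) and BMP4 (0.761 ± 0.140) came last.

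The rest of the pathway was read through 8 lists of 76 genes, ordered by role, of which 49 passed the filter on low counts. Of these, 17 rose and 7 fell at an adjusted p under 0.05, or 34.7% and 14.3%, where 21.7% of all genes tested rose and 20.3% fell. The lists pool genes of opposed roles and were chosen with earlier results of these data known, so the shares are a description. The median log2 fold change was 0.14, against 0.02 over all genes tested. Of the 24 calls, 12 held under each of the 13 alternative settings, and the others are given with the number of settings that ended them.

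Among the other ligands, BMP3 rose and was the gene with the largest change of all lists. BMP3, a family member that opposes the bone-forming BMPs, received 85 and 84 counts in shCON and 506 and 443 counts in shZDHHC15 samples, a 5.15-fold increase (log2 fold change 2.37 ± 0.171, SE, adjusted p = 6.79e-08). Its samples were far apart between the groups. BMP6 and BMP8B were tested and did not pass, and the remaining 10 ligands of the list had at most 10 counts in any sample. An exon of PPIE overlaps BMP8B on the opposite strand.

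Of the receptors and co-receptors, 4 of 9 tested rose and 0 fell, beside 21.7% and 20.3% of all genes tested. NEO1, which encodes neogenin, a receptor for the BMP co-receptors of the RGM family, received 600 and 518 counts in shCON and 1154 and 901 in shZDHHC15 samples (log2 fold change 0.76, adjusted p = 4.69e-04). ACVR1, which encodes the type I receptor ALK2, rose by 0.59 ± 0.126 (log2, SE, adjusted p = 0.00173). ENG, which encodes endoglin, a co-receptor best known from endothelium, rose by 0.58 (adjusted p = 0.02), and ACVR2A, a type II receptor shared with activins, rose by 0.46 (adjusted p = 0.049). The calls of ENG and ACVR2A were lost under 6 and 8 of the 13 alternatives, ACVR2A lay at 0.71 when shCON replicate 1 was left out and at 0.21 when shCON replicate 2 was, and both genes have exons overlapped by genes on the opposite strand. The other type I receptors did not pass, with log2 fold changes of 0.32 for BMPR1A (95% confidence interval -0.03 to 0.67, adjusted p = 0.132) and -0.54 for BMPR1B (-1.17 to 0.10, adjusted p = 0.163). The BMPR1A value turned on single samples: it was 0.064 without shZDHHC15 replicate 1, but passed without shZDHHC15 replicate 2 (0.53, adjusted p = 0.0134), without shCON replicate 1 (0.45, adjusted p = 0.0163) and with the replicate number as a block (adjusted p = 0.0452). BMPR1A has near-identical pseudogene copies, BMPR1AP1 and BMPR1AP2, among which its reads could be split. ACVRL1, the type I receptor of endothelium, had 0 counts in all 4 samples.

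Of the signal-carrying SMADs, SMAD1 rose by 0.48 ± 0.164 (log2, SE, adjusted p = 0.0289), from 145 and 143 to 216 and 222 counts, a call lost under 6 of 13 alternatives. SMAD5, with the highest level per gene length of the BMP-activated SMADs, had a log2 fold change of 0.13 with a 95% confidence interval from -0.13 to 0.38, and SMAD4, the partner shared by all SMAD signals, had one of 0.23 with an interval from -0.03 to 0.48. SMAD9 had at most 12 counts in a sample and did not pass the test (log2 fold change 0.21, 95% confidence interval -0.87 to 1.29).

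The extracellular antagonists were the list with most falls, 4 of 8 genes tested, with 1 gene that rose. Over the whole table, 20.3% of the genes tested fell and 21.7% rose. NOG, which encodes noggin and binds BMPs directly, received 264 and 202 counts in shCON and 108 and 123 counts in shZDHHC15 samples (log2 fold change -1.13 ± 0.178, SE, adjusted p = 1.44e-04). FST, which encodes follistatin, an inhibitor of activins and of some BMPs, received 478 and 440 against 161 and 245 counts (log2 fold change -1.30 ± 0.162, SE, adjusted p = 1.77e-05). FSTL3, a follistatin relative that mainly binds activins and GDFs, fell from 306 ± 25 to 129 ± 23.9 CPM (SD, n = 2; adjusted p = 1.1e-06). In all 3 genes both shZDHHC15 samples lay below both controls. CRIM1, a membrane protein that tethers BMPs, fell by 0.69 on the log2 scale (adjusted p = 7.48e-05). FSTL1, a more distant relative, rose by 0.29 (adjusted p = 0.0223), a call lost under 5 alternatives, and TWSG1 was at 86.2 ± 5.18 and 86.8 ± 4.83 CPM. The antagonist genes CHRDL1, CHRDL2 and BMPER were at 0 counts in every sample.

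Of the proteases that process BMPs or cleave chordin, PCSK6 rose 2.06-fold (log2 fold change 1.04 ± 0.219, SE, adjusted p = 0.00156) and PCSK7 1.49-fold (adjusted p = 0.00104), whereas FURIN, the main proprotein convertase of BMPs, had a log2 fold change of -7.76e-04 (95% confidence interval -0.20 to 0.20). Exons of PCSK7 overlap TAGLN on the opposite strand, a gene that went from 1672 and 1504 to 547 and 792 counts, and PCSK6 overlaps 2 annotated transcripts of at most 13 counts. TLL1, a tolloid protease, fell by 0.60 on the log2 scale (adjusted p = 0.0317), a call lost under 7 alternatives.

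Of 9 intracellular and membrane negative regulators, all tested, 4 rose and 1 fell, beside 21.7% and 20.3% of all genes tested. TOB1, an antiproliferative protein that dampens BMP-activated SMADs, rose 1.56-fold (adjusted p = 2.29e-04), SKIL, a SMAD corepressor, 1.56-fold (adjusted p = 7.57e-04) and BAMBI, a decoy receptor without a kinase that BMP signalling induces, 1.46-fold (adjusted p = 0.00221). SKI rose by 0.33 on the log2 scale (adjusted p = 0.012) and SMURF2, a ubiquitin ligase for SMADs and receptors, fell by 0.36 (adjusted p = 0.0198), calls lost under 3 and 4 alternatives. Without shZDHHC15 replicate 1, SMURF2 was at -0.23. SMAD7, the second inhibitory SMAD and a relative of SMAD6, had a log2 fold change of 0.14 with a 95% confidence interval from -0.12 to 0.41, below the interval of SMAD6 (1.02 to 1.70). The difference between these 2 genes was not tested.

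Of 8 further BMP target genes tested, 3 rose and 0 fell, where 21.7% of all genes tested rose and 20.3% fell. ATOH8, a bHLH factor induced by BMPs, went from 11 and 19 to 44 and 45 counts (log2 fold change 1.44 ± 0.375, SE, adjusted p = 0.00663) and MSX2, a homeobox gene, from 167 and 178 to 257 and 312 counts (log2 fold change 0.59, adjusted p = 0.00802). RUNX2, an osteoblast factor, rose by 0.37 (adjusted p = 0.0375). The calls of ATOH8, MSX2 and RUNX2 were lost under 2, 1 and 6 alternatives, and RUNX2 was at 0.21 without shCON replicate 2. DLX3, a homeobox gene, had 16 and 5 counts in shCON and 33 and 20 in shZDHHC15 samples, and its positive log2 fold change of 1.204 did not pass (adjusted p = 0.0684). HEY1, DLX2, GATA2 and GATA3 had negative log2 fold changes that did not pass, from -0.94 for DLX2 to -0.18 for GATA2. With a sample left out DLX3 lay between 0.64 and 2.17 and DLX2 between -1.404 and -0.45. DLX2, DLX3 and GATA3 each passed under 3 alternatives, among them DLX3 without shCON replicate 1 (adjusted p = 0.0158) and DLX2 without shCON replicate 1 (adjusted p = 0.00322) and without shZDHHC15 replicate 1 (adjusted p = 0.013). Of the genes of E proteins, which ID proteins bind, TCF3 fell by 0.30 on the log2 scale (adjusted p = 0.018) and TCF12 rose by 0.31 (adjusted p = 0.0465), calls lost under 4 and 8 alternatives, and TCF4 had 0 counts in all samples.

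**Figure D4:**
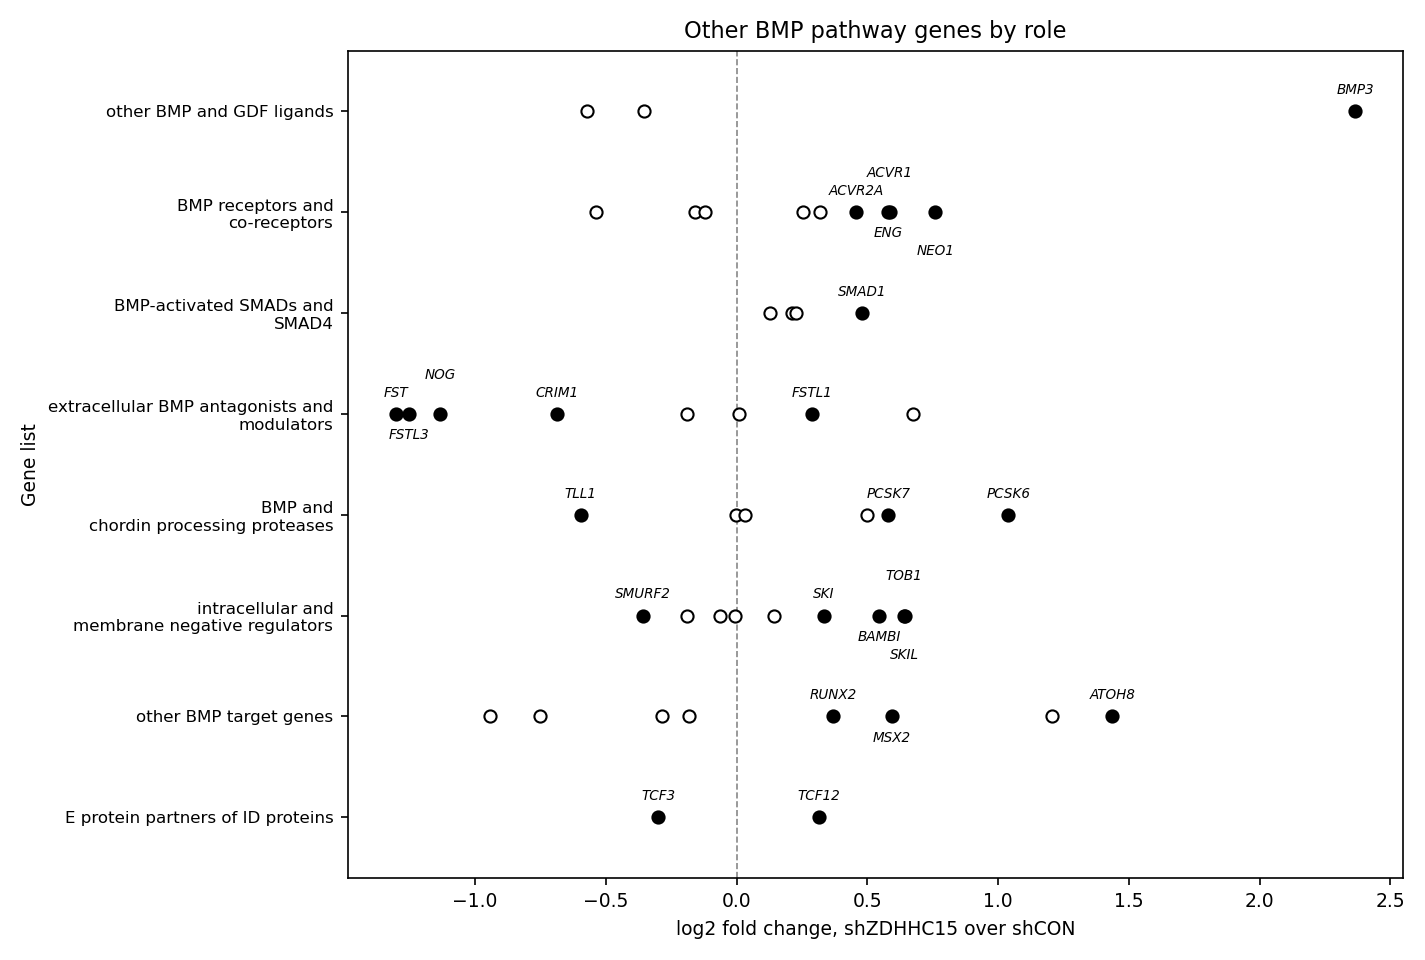
log2 fold change of shZDHHC15 over shCON for the 49 tested genes of the 8 other lists, by role (filled, adjusted p under 0.05, with gene names; open, not passing). The antagonists NOG, FST and FSTL3 lie between -1.30 and -1.13, the called receptors between 0.46 and 0.76, and BMP3 at 2.37.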

How the data were processed

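RNA of HCC1954 cells was sequenced from NEBNext Ultra libraries in 4 samples, 2 per group. The authors deposited raw read counts per gene for 58735 genes. The submitters' processing notes name HISAT2, StringTie, SAMtools and hg38 without versions, and the counting tool and strand setting are not given in the sources used here, so reads of genes that overlap on opposite strands cannot be told apart. All 58735 identifiers matched GENCODE release 29 (GRCh38) in start, end and symbol. All 4 sample columns were used (0 left out). Genes passing filterByExpr (15817) were tested on the counts with edgeR 4.0.16 (R 4.3.3; TMM, glmQLFit with legacy = FALSE, glmQLFTest, Benjamini-Hochberg). Intervals at the 95% level come from that fit. Samples of a group differed by more than counting noise. The chi-square per degree of freedom was 8.32 in shCON (15202 genes) and 6.79 in shZDHHC15 (15741 genes), over genes with 20 or more summed counts.

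The members and lists were chosen with earlier results of these data known. Named were all members, list genes past the adjusted p (up to 5 per list, by smallest p), the type I receptors, SMAD1, SMAD4, SMAD5, NOG, FST and markers. SMAD9, SMAD7, TWSG1, FURIN, TCF4, DLX3 and others at 0 or not passing were added after their values were seen. Near-identical copies were sought with blastn 2.17.0. On simulated counts with 200 of 15817 genes changed by 1.5 (log2), edgeR recovered 85.5% with 5.52% false calls and DESeq2 1.42.0 75%. These rates hold for that setting only. In the data 42% of the genes tested were called, and changes smaller than 1.5 were not simulated. Alternatives were DESeq2 size factors, library size, upper-quartile factors, the DESeq2 Wald test, other filters on low counts, the legacy quasi-dispersion, the replicate block, glmTreat and each sample left out, where the lone sample is assumed to vary like the other group.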

Additional observations from a re-analysis of the deposited data

How the results depend on the processing

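BMP7, BMPR2, SMAD6, ID1, ID3 and ID4 kept their direction and stayed called, and ID2 stayed uncalled, under all 13 alternatives. BMP2 lost its call with glmTreat against a fold change of 1.2 (log2 fold change -0.49, adjusted p = 0.0551) and without shZDHHC15 replicate 1, and lay between -0.60 and -0.40 over the fits that left out 1 sample. BMP4 lay between -0.34 and 0.04 over those fits, and was reversed without shCON replicate 2 (0.019) and without shZDHHC15 replicate 1 (0.044). Counted over reads in place of per-length levels, the differences in share (shZDHHC15 minus shCON) moved from 36.1 to 40.3 percentage points for ID1, from -0.94 to -1.15 for ID2, from -27.2 to -28.5 for ID3 and from -7.99 to -10.7 for ID4. The share differences of BMP2 (-3.18 to 3.07) and BMP7 (-4.11 to 1.25) changed sign with a sample left out.

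Of the other pathway genes, 17 higher and 7 lower became 10 higher with no filter on low counts, 10 higher and 4 lower with glmTreat, 11 higher with the DESeq2 Wald test, 4 lower with library size only, and between 10 and 17 higher with a sample left out, the 10 without shZDHHC15 replicate 1. Over all genes, 3427 higher became 2282 with no filter and 2274 with glmTreat, and 3217 lower became 1883 with glmTreat. Among the pathway genes, signs turned for values that did not pass the test: RGMA from -0.12 to 1.203 without shCON replicate 1 (lowest -0.78 without shCON replicate 2), TWSG1 from 0.0091 to -0.0031 with DESeq2 size factors, -0.022 with upper-quartile factors, -0.0088 with no filter, -0.0083 with DESeq2, and, with a sample left out, between -0.062 and 0.059, FURIN from -7.76e-04 to 0.075 with library size only, 0.011 with at least 10 counts in every sample and, with a sample left out, between -0.077 and 0.034, BMP1 from 0.03 to between -0.027 and 0.081 with a sample left out, PPM1A from -0.06 to 0.012 with library size only, and LEMD3 from -0.0049 to 0.069 with library size only, 0.0064 with at least 10 counts and, with a sample left out, between -0.13 and 0.085. The cause of these changes was not tested.

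With the replicate number as a block, 3723 genes were higher and 3502 lower, 19 and 8 of the pathway lists, and no member changed its call (ID1 1.49, ID3 -1.18). The numbers are not shown to pair the samples: across genes, the difference of replicate 1 and 2 in shCON correlated with that in shZDHHC15 at 0.0344. No scaling moved the median of all genes by over 0.0744 on the log2 scale. Depth limits BMP4, ID2 and GREM1 most.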

Other observations

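The genes within 500 kb of the 10 genes were read as a description of position, which the choice of genes did not use. Of 67 neighbours tested, 19 rose and 14 fell by edgeR's quasi-likelihood test (adjusted p under 0.05). Their median was -0.0071 on the log2 scale, and 21.7% and 20.3% of all genes tested rose and fell. Around ID1, 0 of 8 neighbours rose and 3 fell, with BCL2L1, an antiapoptotic gene, at a log2 fold change of -1.01 ± 0.103 (SE, adjusted p = 2.68e-06). Around ID3, 6 of 19 rose and 2 fell, with the cell cycle factor gene E2F2 at 0.98 (adjusted p = 8.72e-06). Around ID4, 0 of 2 passed the test, and BMP2 had 0 tested neighbours. The called neighbour with the largest rise was ZBP1, a sensor of Z-form nucleic acids near BMP7, at 3.43 ± 0.476 (SE, adjusted p = 4.87e-05). The one with the largest fall was CDKN3, a phosphatase of cell cycle kinases near BMP4, at -1.28 ± 0.108 (SE, adjusted p = 3.44e-07). SMAD3, which carries TGF-beta signals and lies within 500 kb of SMAD6, rose by 0.46 on the log2 scale (adjusted p = 0.00114). Rises larger in size than the fall of CDKN3 were also called for LINC02256 near GREM1 (2.61), ICA1L near BMPR2 (1.86) and MEGF11 near SMAD6 (1.44). BCL2L1, E2F2, SMAD3, LINC02256, ICA1L and MEGF11 were named after their values were seen.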
